A study of Sus scrofa with 32 samples.

Results

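Expression of the genes for heat shock proteins and their co-chaperones was examined in the muscles of 2 pig breeds. Members were chosen by gene symbol alone: names starting with HSPA, HSPB, HSPD, HSPE, HSPH, HSP90, DNAJ, BAG plus a number or CCT plus a number, and CRYAB and HSF1. The rule found 65 of the 25322 gene IDs in the count table, of which 11804 could be paired with a symbol. By family these were 9 HSP70 genes, 1 HSP110 gene, 3 HSP90 genes, 33 J protein genes (3 DNAJA, 9 DNAJB and 21 DNAJC), 3 BAG genes, 3 small HSP genes, 8 CCT chaperonin genes, 2 mitochondrial chaperonin genes and HSF1. The other 2, HSPBP1 and HSPBAP1, share the prefix HSPB but are not small HSPs: the first binds HSP70 and the second binds a small HSP. No ID was paired with CRYAB, HSPB1, HSPB7, HSPA1A or HSPA1B, which were not analysed here.

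RNA sequencing covered the longissimus dorsi (LD), a back muscle, and the semimembranosus (S), a ham muscle, of 16 gilts, 8 of the Pulawska breed (PUL) and 8 of the Polish Landrace breed (PL), which gave 32 libraries. Every gilt was 180 days old by its label, though the study's methods set slaughter by body weight and treat age at slaughter as a trait that varied. The gilts were kept under the same housing and feed and starved before slaughter, and muscle was taken soon after it. The 4 groups were therefore PUL LD, PL LD, PUL S and PL S, and each gilt gave 1 library of either muscle. The breeds differed in growth and carcass fat and in meat quality, and breed and all that goes with it (farm of origin, age at slaughter, growth rate, carcass) cannot be told apart.

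Molecular chaperones hold unfolded or partly folded proteins until they reach their shape. HSP70 binds short exposed stretches of a client protein in cycles of ATP use. J proteins bring clients and start the cycle, and nucleotide exchange factors such as HSP110 and some BAG proteins end it. HSP90 receives clients from HSP70, small HSPs keep denatured proteins from clumping, the chaperonins fold proteins inside a closed barrel, and HSF1 is the transcription factor that induces many of these genes under heat and other stress. In muscle, HSPB8 and BAG3 together remove damaged Z-disc proteins, and in meat science the small HSPs have been followed as markers of tenderness.

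Between 8821273 and 24761853 counts were assigned to genes per library, of which the members took 0.449 to 1.33%. Skeletal muscle genes were high in every library, with a summed level of 37780 to 167500 CPM (the count as a share of the library's total after TMM scaling, a normalised read count). Libraries of PUL pigs 1, 2, 3, 4 and 5 stood apart from all others by liver transcripts, among them that of albumin. In these pigs albumin (ALB), a product of hepatocytes, lay between 8.61 and 88.8 CPM in LD and between 7.67 and 920 CPM in S. PUL pigs 13, 16 and 17 had at most 0.255 CPM in LD and 0.393 in S, and PL pigs at most 4.27 and 1.55. APOC3, FGB, TTR, AHSG, TF and AMBP also set pigs 1 to 5 apart from all others in both muscles. TF in pigs 1 to 5 was at least 3.33 CPM in LD and 2.66 in S. In the other gilts it was at most 0.712 and 0.358 CPM. Not every liver gene set pigs 1 to 5 apart. Their APOA1 in S was 5.26 to 21.65 CPM, below PUL pig 17 (64.9) and PL pig 14 (32.15). Summed over 11 hepatocyte genes, pigs 1 to 5 lay above all others in LD (at least 31.4 CPM, others at most 20.9). In S the sum of pig 3 (25.9 CPM) lay below those of PUL pigs 16 and 17 and PL pig 14 (26.06, 65.3 and 33.8). APOA1 alone held 25.8, 64.9 and 32.15 CPM of these 3 sums. Because of the liver transcripts, the breed results are also given for PUL pigs 13, 16 and 17 alone against PL, a division chosen after the data were seen. These 3 gilts also stood apart in FOS, an immediate early gene, with 11.6 to 27.8 CPM in LD and 66.7 to 125.5 in S, below every PL gilt (211 to 1901 and 283 to 960 CPM). PUL pigs 1 to 5 had 28.2 to 1146 CPM of FOS in LD and 136 to 1798 in S. Against pigs 13, 16 and 17, 9 of 9 immediate early genes in LD and 8 of 9 in S had higher values in PL. Other lists had unequal values in the breeds too: all 6 tested fibroblast genes had higher values in PL in both muscles (median log2 fold change 1.42 in LD and 1.13 in S). Immune cell genes had higher values in PL for 4 of 4 in both muscles (medians 0.62 and 0.44), and red blood cell genes for 2 of 3 in LD and 3 of 3 in S (medians 1.32 and 1.298). Of 9 immediate early genes, which respond to handling within minutes, 8 had higher values in PL in LD (median 0.93) and 6 in S (median 0.25), and 8 had higher values in S than in LD. Adipocyte genes had lower values in PL for 3 of 4 in LD and 2 of 3 in S (medians -0.59 and -0.58). Slow fibre genes did for 4 of 5 in both muscles (medians -0.26 and -0.12). Fast fibre genes did for 2 of 4 and 3 of 4 (medians -0.04 and -0.23), and skeletal muscle genes for 2 of 5 and 4 of 5 (medians 0.03 and -0.13). The part of these differences in the chaperone results was not tested. In bulk muscle fewer cells of a type and less RNA per cell cannot be told apart.

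No member passed the test between the breeds after adjustment over all genes. HSP90AA1, the inducible HSP90, and the small HSP HSPB6 were the members at an unadjusted p under 0.05 in both muscles, with log2 fold changes (PL against PUL) of -0.69 and -0.79 in LD and -0.87 and -0.47 in S. Of the 53 members tested in LD, edgeR's quasi-likelihood test called 0 at an adjusted p of at most 0.05 and a fold change of at least 1.3, as it did of all 10792 genes (0%). It likewise called 0 of 53 in S, and 0% of the 10687 genes tested there. DESeq2 also called 0 members in either muscle, against 0.493% of genes in LD and 1.9% in S, and the edgeR exact test called 0, against 0.12% and 0.533%. At an unadjusted p under 0.05 stood 7 members in LD, 13.2% of those tested against 7.15% of all genes, and 4 in S, 7.55% against 11.7%. These counts turned on single gilts. In LD they were 1 without PUL pig 2 (1.89% against 6.83%) and 2 without PL pig 10 (3.77% against 5.09%). Without PL pig 18 there were 4 (7.55% against 7.53%), and without PUL pig 5 there were 8 (15.1% against 6.36%). In S they were 12 without PUL pig 16 (22.6% against 11.3%) and 11 without PL pig 14 (20.8% against 16.9%). Without PUL pig 5 there were 9 (17% against 17.1%), and without PUL pig 17 there were 8 (15.1% against 10.3%). Without PL pig 15 there were 7 (13.2% against 10.9%). With all gilts, the 10 of these 11 values that lay below 0 (lower in PL) belonged to HSPB6 and HSP90AA1 in both muscles, to HSPA4, HSPA9, DNAJA1 and CCT4 in LD, and to HSF1 and DNAJC4 in S. DNAJC19 in LD was the exception.

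Most members had lower values in PL, though none was called. The log2 fold change, PL against PUL, was below 0 for 37 of 53 members in LD (69.8%, against 49.2% of all genes) and for 37 of 53 in S (69.8%, against 47.4%). Scaled by library size alone, without TMM factors, these shares were 84.9% against 73.2% in LD and 66.0% against 40.2% in S, where the median over all genes moved to -0.18 and 0.07. Its median over members was -0.10 in LD and -0.16 in S, beside 0.01 and 0.02 over all genes. Both comparisons used the same 16 gilts, so the muscles are not independent of each other. All 3 HSP90 genes, HSPH1, both mitochondrial chaperonins, both tested small HSPs and all 3 DNAJA genes had values below 0 in both muscles, as did 6 of 6 CCT genes in LD and 5 of 6 in S, and these family counts were the same by library size alone. Leaving out any 1 gilt left 33 to 39 of 53 members below 0 in LD and 33 to 40 in S. Without PUL pigs 1 to 5 this was no longer seen: 24 of 53 members lay below 0 in LD (45.3%, against 45.1% of all genes) and 24 of 54 in S (44.4%, against 44.2%), and the medians were 0.02 and 0.09. With 3 PUL gilts left, that comparison was also less precise.

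**Figure D1:**
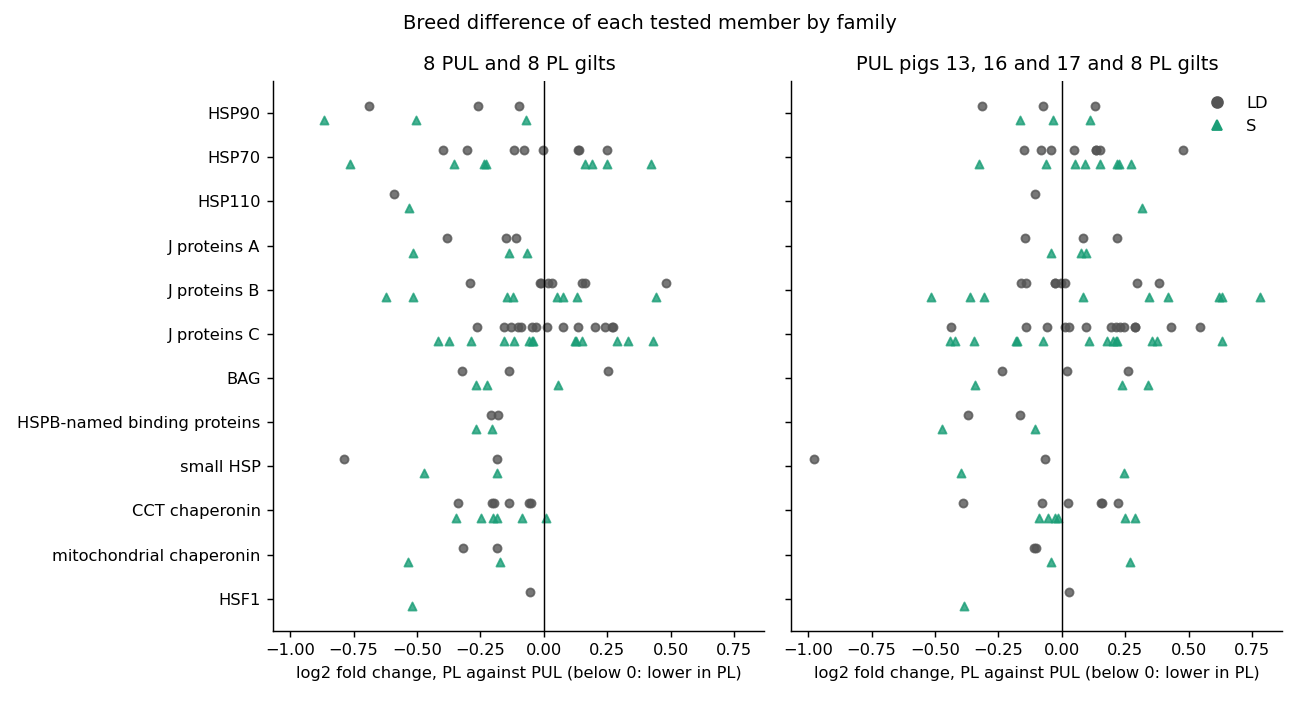
Log2 fold change of each tested member (x axis, PL against PUL, below 0 is lower in PL) by chaperone family (y axis), circles for LD and triangles for S. On the left, with all 16 gilts, 37 of 53 members lie below 0 in each muscle; on the right, with PUL pigs 13, 16 and 17 and the PL gilts, 24 of 53 in LD and 24 of 54 in S do.

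Among the HSP90 genes the widest difference was that of HSP90AA1, the stress-inducible cytosolic form. In LD it had 436, 761 and 1920 CPM (lowest, median and highest) in PUL and 363, 584 and 770 CPM in PL. The S muscle gave 436, 962 and 2932 CPM in PUL and 443, 609 and 718 CPM in PL. The groups overlapped, but 4 of 8 PUL gilts in LD and 5 of 8 in S lay above every PL gilt, and PUL pig 2 had the highest value in both muscles. Against PUL, PL differed by a log2 fold change of -0.69 ± 0.26 (SE) in LD (adjusted p = 0.559) and -0.87 ± 0.32 in S (adjusted p = 0.324). Without pig 2 it came to -0.45 in LD and -0.44 in S, and with PUL pigs 13, 16 and 17 alone to -0.31 ± 0.28 and -0.16 ± 0.25. HSP90AB1, the constitutive cytosolic form, had medians of 470 CPM in PUL and 448 in PL in LD, and of 471 and 383 CPM in S, where PUL pig 2 reached 1340 CPM. The HSP90AB1 difference came to -0.26 ± 0.19 in LD and -0.50 ± 0.24 in S, and 0.13 ± 0.20 and -0.04 ± 0.18 without PUL pigs 1 to 5, and without pig 2 alone it was -0.19 in S. For HSP90B1, the form of the endoplasmic reticulum, the values were -0.10 ± 0.15 and -0.07 ± 0.19, within 1 SE of 0.

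HSP70 genes took 31.5% of all counts of the members, more than any other family, and HSP90 genes 20.2%, without correction for gene length. HSPA8, the constitutive cytosolic HSP70, alone held 18.2%, with medians of 1349 CPM in PUL and 1191 in PL in LD and of 1312 and 1221 in S. Its breed difference was -0.12 ± 0.19 in LD and -0.24 ± 0.18 in S. HSPA5, the HSP70 of the endoplasmic reticulum, had values of opposite sign in the muscles, -0.08 ± 0.14 and 0.16 ± 0.15. HSPA9, the mitochondrial HSP70, had 144, 224 and 231 CPM in PUL and 130, 164 and 221 CPM in PL in LD, where 5 of 8 PUL gilts lay above every PL gilt (log2 fold change -0.30 ± 0.14, adjusted p = 0.689). In S the same number of PUL gilts lay above every PL gilt and its value was -0.23 ± 0.15, but 0.15 ± 0.15 without PUL pigs 1 to 5. HSPA4, an exchange factor of the HSP110 type despite its symbol, had 69.7, 104 and 153 CPM in PUL and 56.3, 80.9 and 101 CPM in PL in LD. All 5 of the PUL gilts that lay above every PL gilt were pigs 1 to 5, whose lowest value was 102 CPM. The difference was -0.40 ± 0.16 in LD (adjusted p = 0.615) and -0.35 ± 0.19 in S, and -0.04 ± 0.21 and 0.09 ± 0.19 without those pigs.

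The widest spread between gilts of a group in this family was that of HSPA1L, a testis-type HSP70 whose sequence is nearly the same as that of the inducible HSPA1A and HSPA1B. Reads of these genes could be divided among them by the counting, so its values are uncertain and may hold those of the inducible forms. It had 162, 418 and 871 CPM in PUL LD, 92.8, 223 and 1481 CPM in PL LD, 209, 636 and 1825 CPM in PUL S and 187, 353 and 1159 CPM in PL S. In PL LD the highest values, of pigs 7 and 8, lay above every PUL gilt. The breed difference was 0.14 ± 0.53 in LD and -0.77 ± 0.43 in S (adjusted p = 0.491), the value in LD turned to -0.38 without PL pig 7, and that in S was -0.45 without PUL pig 4.

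HSPH1, the HSP110 that acts as exchange factor of HSP70, had 31.2, 65.8 and 87.9 CPM in PUL and 19.9, 36.5 and 74.2 CPM in PL in LD. In S it had 24.9, 73.1 and 126 CPM in PUL and 22.7, 44.0 and 79.0 CPM in PL. Values in S left a gap between 31.3 and 56.6 CPM, with 2 PUL and 4 PL gilts below it and 6 PUL and 4 PL gilts above. The breed difference was -0.59 ± 0.29 in LD (adjusted p = 0.704) and -0.53 ± 0.34 in S (adjusted p = 0.536). In S, PUL pigs 1 to 5 had between 72.2 and 126 CPM and pigs 13, 16 and 17 between 24.9 and 64.1 CPM. The sign in S turned without the former, to 0.32 ± 0.44.

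**Figure D2:**
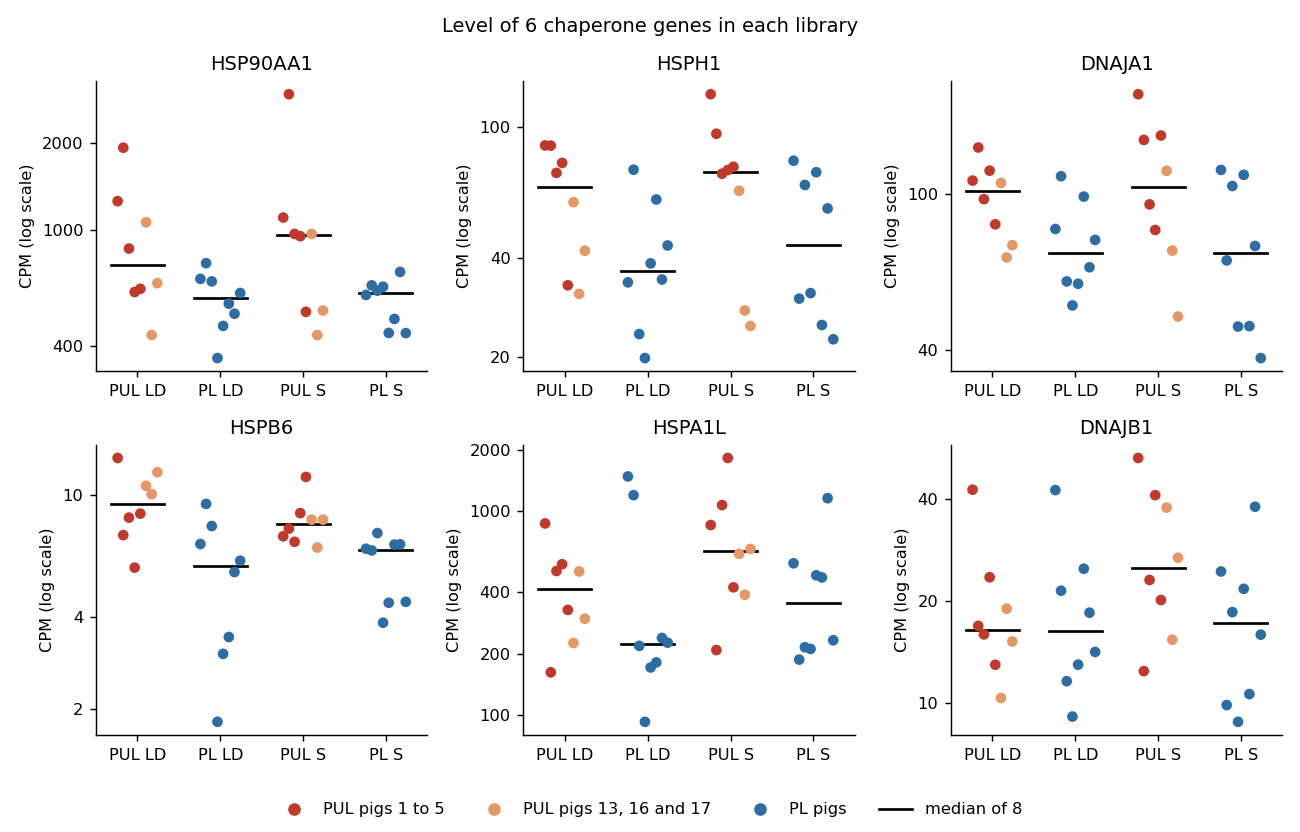
CPM (log scale) of 6 chaperone genes in each library, by breed and muscle, with the median of the 8 libraries as a bar and the PUL gilts with liver transcripts in red. HSP90AA1 reaches 1920 CPM in LD and 2932 in S in PUL pig 2, and for HSPH1 in S all red points lie at or above 72.2 CPM.

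Of the J proteins, many but not all of the DNAJA and DNAJB genes encode general partners of HSP70, while the DNAJC genes are a mixed group with special tasks. DNAJA1, a cytosolic partner of HSPA8, had 68.8, 102 and 131 CPM in PUL and 51.9, 70.6 and 111 CPM in PL in LD, and 48.6, 104 and 180 CPM in PUL and 38.1, 70.6 and 115 CPM in PL in S. For DNAJA1 the log2 fold change came to -0.38 ± 0.18 in LD (adjusted p = 0.694) and -0.52 ± 0.28 in S (adjusted p = 0.479), and -0.15 ± 0.25 and -0.04 ± 0.37 without PUL pigs 1 to 5. DNAJB1, the main stress-inducible J protein, had almost equal medians in LD, 16.5 CPM in PUL and 16.3 in PL, and 24.97 and 17.3 CPM in S (-0.62 ± 0.33, adjusted p = 0.467). DNAJB4 had the largest positive difference of the named members in LD, 0.48 ± 0.25 (adjusted p = 0.724), with medians of 122 CPM in PUL and 189 in PL. In S its highest value was the 802 CPM of PUL pig 5, the library with the most ALB, while the next PUL gilt had 252 CPM. The S difference of DNAJB4 was 0.05 with all gilts and 0.68 without this pig. The same library held 270 CPM of DNAJB5 (its group's median was 83.6 CPM), and without PUL pigs 1 to 5 the DNAJB5 difference in S was 0.63 ± 0.22 (adjusted p = 0.283), against -0.15 ± 0.28 with all gilts.

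DNAJC19, a subunit of the mitochondrial protein import motor, was the member at an unadjusted p under 0.05 with higher values in PL: 55.2, 64.4 and 72.2 CPM in PUL LD and 64.1, 75.1 and 95.9 CPM in PL LD (0.27 ± 0.12, adjusted p = 0.630). In 4 of 8 PL gilts it lay above every PUL gilt. DNAJC4, a J protein with little known function, had 12.2, 16.0 and 19.0 CPM in PUL and 6.18, 12.3 and 18.3 CPM in PL in S (-0.37 ± 0.17, adjusted p = 0.402), but 0.14 ± 0.16 in LD. For DNAJC7, which hands clients between HSP70 and HSP90, the values were -0.05 ± 0.25 and -0.12 ± 0.21, within 1 SE of 0. DNAJA2, a second cytosolic partner of HSPA8, had medians of 48.5 CPM in PUL and 40.2 in PL in LD and of 42.4 and 42.3 in S. Over the family, the log2 fold change was below 0 in 3 of 3 DNAJA, 3 of 8 DNAJB and 7 of 14 DNAJC genes in LD, and in 3, 4 and 8 of them in S. By library size alone 6 of 8 DNAJB and 10 of 14 DNAJC genes lay below 0 in LD, and 4 and 6 in S.

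The 3 BAG genes differed in sign. BAG1 had a value of 0.25 ± 0.15 in LD and 0.06 ± 0.14 in S, and BAG6 one of -0.14 ± 0.19 and -0.22 ± 0.15. BAG3, the partner of HSPB8, had 44.8, 55.6 and 83.0 CPM in PUL and 19.4, 49.0 and 70.2 CPM in PL in LD, and 27.0, 63.3 and 131 CPM in PUL and 30.5, 48.4 and 100.2 CPM in PL in S. Its differences were -0.32 ± 0.23 and -0.27 ± 0.28, and in S the sign turned to 0.24 ± 0.37 without PUL pigs 1 to 5. HSPBP1, an HSP70 exchange factor, had -0.21 ± 0.18 in LD and -0.27 ± 0.16 in S, and -0.37 ± 0.25 and -0.47 ± 0.21 without those pigs. HSPBAP1 had few counts, with medians of 2.90 to 3.26 CPM over the 4 groups, and its differences were within 1 SE of 0 in both muscles.

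Of the small HSPs, HSPB6 (HSP20), which binds contractile proteins in muscle, had lower values in PL with and without PUL pigs 1 to 5, and was not called either way. It had 5.79, 9.40 and 13.3 CPM in PUL LD and 1.81, 5.85 and 9.37 CPM in PL LD. In S it had 6.74, 8.05 and 11.5 CPM in PUL and 3.82, 6.64 and 7.52 CPM in PL. The groups overlapped, with 4 of 8 PUL gilts in LD and 5 of 8 in S above every PL gilt. For HSPB6 the log2 fold change came to -0.79 ± 0.28 in LD (adjusted p = 0.540) and -0.47 ± 0.17 in S (adjusted p = 0.329). Against PUL pigs 13, 16 and 17 alone it was -0.98 ± 0.40 and -0.40 ± 0.24 (adjusted p = 0.962 and 0.463). Leaving out any 1 gilt gave values from -0.94 to -0.66 in LD and from -0.53 to -0.38 in S. The third gene of the family, HSPB9, had a total of 2 counts and was not tested. HSPB8 (HSP22) had -0.19 ± 0.17 in LD and -0.18 ± 0.20 in S, and 0.25 in S without PUL pigs 1 to 5.

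The CCT chaperonin folds actin and tubulin and is built of several different subunits. CCT3 had medians of 166 CPM in PUL and 161 in PL in LD and of 172 and 154 CPM in S, with a log2 fold change of -0.21 ± 0.16 and -0.35 ± 0.18. Its highest values, 259 CPM in LD and 362 in S, were those of PUL pig 2, and without PUL pigs 1 to 5 the value in LD was 0.15 ± 0.17. CCT4 had 138, 164 and 266 CPM in PUL and 113, 139 and 167 CPM in PL in LD, where 4 of 8 PUL gilts lay above every PL gilt (-0.34 ± 0.15, adjusted p = 0.659). This value was -0.39 ± 0.21 without PUL pigs 1 to 5, while in S it was -0.20 ± 0.16 and -0.01 ± 0.20. CCT7 differed by -0.05 ± 0.15 and -0.19 ± 0.13. CCT6B and CCT8L2, with totals of 63 and 15 counts, were not tested.

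HSPD1 (HSP60) and HSPE1 (HSP10) together form the mitochondrial chaperonin. HSPE1 had 205, 271 and 493 CPM in PUL and 163, 233 and 282 CPM in PL in LD, and 154, 269 and 535 CPM in PUL and 98.8, 217 and 289 CPM in PL in S. The highest PUL value was again that of pig 2 in both muscles. Its difference was -0.32 ± 0.19 in LD (adjusted p = 0.761) and -0.54 ± 0.27 in S (adjusted p = 0.446), and -0.11 ± 0.21 and -0.04 ± 0.33 without PUL pigs 1 to 5. HSPD1 had -0.18 ± 0.13 and -0.17 ± 0.20.

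HSF1, the heat shock transcription factor, had 13.03, 21.1 and 33.3 CPM in PUL S and 9.44, 15.6 and 19.7 CPM in PL S. Of its PUL values, 4 of 8 lay above every PL gilt, and its log2 fold change of -0.52 ± 0.18 had the smallest adjusted p of the members in S, 0.307. In LD its medians were 17.8 CPM in PUL and 19.7 in PL, and the difference was -0.05 ± 0.27. The interaction of breed and muscle was -0.42 ± 0.38 (adjusted p = 0.9996), so a difference between the muscles in the breed effect was not shown.

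Outside the members, 6 lists of other folding genes were described by counts, and 0 of their genes were called in either muscle by edgeR's quasi-likelihood test. The 3 genes named here were chosen after their values were seen. Of 14 co-chaperones of HSP90, 13 had lower values in PL in LD and 8 in S, where 49.2 and 47.4% of all genes did, and 9 and 8 without PUL pigs 1 to 5. STIP1, which joins HSP70 to HSP90, had -0.43 ± 0.23 in LD and -0.67 ± 0.21 in S. AHSA1, which speeds the ATPase of HSP90, had -0.42 ± 0.15 and -0.52 ± 0.20. FKBP5, a glucocorticoid-induced immunophilin, had -1.05 ± 0.56 and -1.61 ± 0.63. The adjusted p of these genes lay between 0.244 and 0.734. Without PUL pigs 1 to 5 the values were -0.13 ± 0.32 and -0.37 ± 0.23 for STIP1, -0.33 ± 0.21 and -0.18 ± 0.20 for AHSA1, and -0.21 ± 0.68 and -0.70 ± 0.62 for FKBP5. Of 8 other HSP70 co-chaperones, 5 had lower values in PL in LD and 7 in S; of 8 folding enzymes of the endoplasmic reticulum, 6 and 3; and of 9 genes of the remaining chaperonin and the prefoldin complex, 4 and 5. Heat shock factors and their regulators gave 3 of 4 and 4 of 4, and genes of chaperone-assisted autophagy and Z-disc clients gave 7 of 9 in each muscle. Without PUL pigs 1 to 5 the counts of these last 5 lists were 4 and 6 of 8, 5 and 4 of 8, 5 and 4 of 9, 4 of 4 and 2 of 5, and 5 and 5 of 9.

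The muscles were compared within gilts. Over all 16, edgeR's quasi-likelihood test with the pig as a block called 0 of 55 members, against 0.0951% of 11563 genes. At an unadjusted p under 0.05 stood 1 member (1.82% of members against 5.79% of genes). Without PL pig 14 there were 4 (7.27% against 13.1%). In PUL alone the test called 0 members (0.0259% of genes) with 2 at an unadjusted p under 0.05 (3.64% against 6.56% of genes). In PL alone it called 0 (0% of genes) with 1 at an unadjusted p under 0.05 (1.82% against 2.29% of genes). Without pig 14 there were 4 in PL (7.27% against 8.58%). The test of whether the breeds differ in their muscle effect also called 0 (0% of genes), with 1 member at an unadjusted p under 0.05, as were 2.54% of genes. DESeq2 called 0 members in each of these 4 comparisons, against 0.408, 0.504, 0.00497 and 0.00994% of genes. Positive values below mean higher in S than in LD.

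HSPB8 was the member at an unadjusted p under 0.05 over all gilts. It had 581, 637 and 968 CPM in PUL LD and 630, 763 and 1496 CPM in PUL S. In PL it had 410, 640 and 767 CPM in LD and 574, 783 and 985 CPM in S. The S library lay above the LD library in 7 of 8 PUL and 6 of 8 PL gilts. The difference was 0.33 ± 0.10 (adjusted p = 0.448), with 0.31 ± 0.14 in PUL and 0.35 ± 0.14 in PL, and the breeds differed in this effect by 0.04 ± 0.20 (adjusted p = 0.9996). BAG3, its partner, had 0.24 ± 0.19 (10 of 16 gilts higher in S), and HSPB6 had 0.01 ± 0.14. Over all gilts, all 5 slow fibre genes tested had values above 0 in S against LD (median 0.18) and all 4 fast fibre genes too (median 0.05). The breeds differed: in PUL all 5 slow and all 4 fast fibre genes lay above 0 (medians 0.51 and 0.22). In PL, 4 of 5 slow and 3 of 4 fast fibre genes lay below 0 (medians -0.19 and -0.09). Their part in the HSPB8 value was not tested.

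DNAJC4 was higher in S in 8 of 8 PUL gilts, with 8.96, 10.9 and 15.5 CPM in LD and the S values given above (0.49 ± 0.16, adjusted p = 0.485). In PL it was higher in S in 6 of 8 gilts, but pig 14 had 15.7 CPM in LD and 6.18 in S, and the PL value was -0.05 ± 0.16. The difference of the breeds in this effect was -0.54 ± 0.22 (unadjusted p = 0.0268, adjusted p = 0.9996), and -0.37 without pig 14. HSPA1L had values above those in LD in 11 of 16 gilts (0.54 ± 0.30, adjusted p = 0.901). DNAJB1 gave 0.52 ± 0.26 in PUL and -0.06 ± 0.27 in PL. HSP90AA1 had 0.03 ± 0.11, and HSPA8 had -0.09 ± 0.10 with 4 of 16 gilts higher in S.

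**Figure D3:**
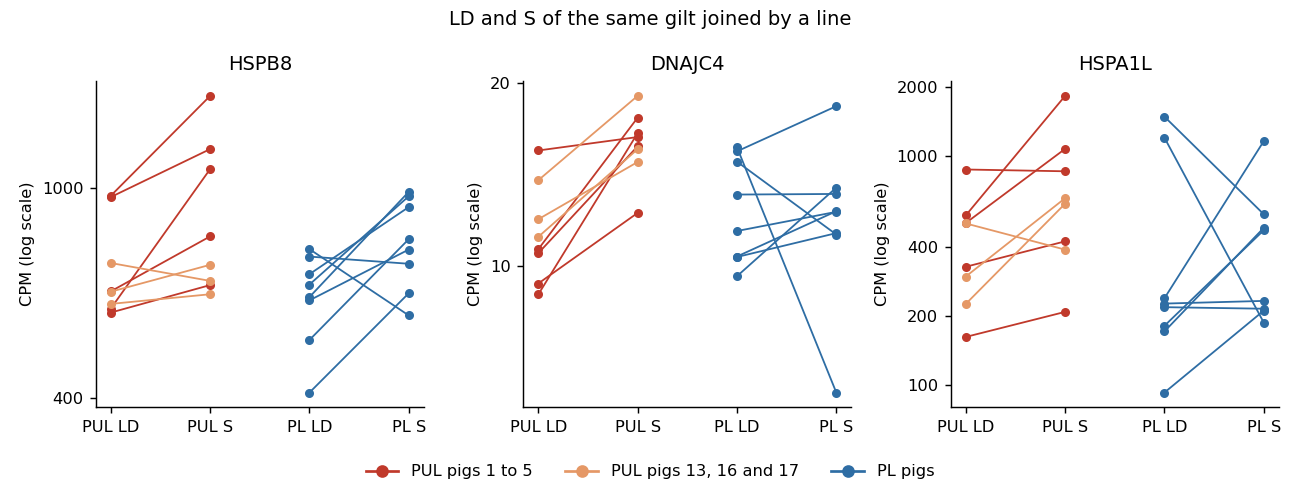
CPM (log scale) of HSPB8, DNAJC4 and HSPA1L in LD and S, with both muscles of a gilt joined by a line. HSPB8 lies higher in S in 13 of 16 gilts and DNAJC4 in 8 of 8 PUL and 6 of 8 PL gilts, while PL pig 14 has 15.7 CPM in LD and 6.18 in S.

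Whether a gilt with a high level in LD also had a high level in S was asked with Pearson's r over the 16 gilts, on log2(CPM + 0.5) as the deviation from the breed mean. A permutation test (two-sided, 100000 resamples, gilts permuted within breed) with Benjamini-Hochberg adjustment over all genes called 0 of 55 members, against 0.251% of genes, and Spearman's rho called 0 as well. At an unadjusted p under 0.05 stood 10 members, 18.2% of them against 13.6% of genes. CCT3 had r = 0.79 (permutation p = 0.00117, adjusted p = 0.110) and rho = 0.71 (permutation p = 0.0157), and r was 0.68 without the 2 gilts farthest from the median, PUL pigs 1 and 2. HSP90AA1 had r = 0.79 (permutation p = 0.00391, adjusted p = 0.167) and rho = 0.59 (permutation p = 0.0359), but 0.45 without PUL pigs 2 and 16, and 0.91 in PUL and 0.07 in PL. HSPA4 gave r = 0.68 (permutation p = 0.00745, adjusted p = 0.203) and rho = 0.56 (permutation p = 0.0297), with 0.47 without PUL pigs 2 and 17. HSPH1 gave only 0.17 (permutation p = 0.530, rho = 0.09, permutation p = 0.761), with 0.73 in PUL and -0.43 in PL. Over members, PL pig 14 stood apart, since its deviations in LD and S were opposite (r = -0.63 across members, -0.50 across all genes), while in the other gilts r across members lay between -0.16 and 0.70. Genes are not independent replicates in these last values.

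Members of a folding machine were also followed together over the gilts of a muscle, in relation to HSPH1 and to HSPA1L. These anchors were chosen after their values were seen, and with LD against S they make 5 relations per gene. By Pearson's r the gene most alike to HSPH1 of all 11562 genes was DNAJA1, the J protein, in both muscles. By rho L3MBTL3 stood above it in S (0.93). In LD it had r = 0.90 (permutation p = 5e-05, adjusted p = 0.289) and rho = 0.89 (permutation p = 6e-05, adjusted p = 0.231), with r = 0.85 without PL pigs 8 and 10. In S it had r = 0.92 (permutation p = 2e-05, adjusted p = 0.0514) and rho = 0.92 (permutation p = 4e-05, adjusted p = 0.0340), with r = 0.91 without PUL pigs 16 and 17. The relation was alike within the breeds, 0.90 in PUL and 0.90 in PL in LD and 0.89 and 0.95 in S, and with the mean of PUL pigs 1 to 5 and that of pigs 13, 16 and 17 taken off separately r was 0.88 and 0.92. On the low side of the HSPH1 gap in S (6 gilts) r was 0.57, and on the high side (10 gilts) it was 0.81. Across muscles, however, DNAJA1 gave r = 0.16 (permutation p = 0.559, rho = 0.22, permutation p = 0.434).

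By Pearson's r, 0 of 54 members were called in relation to HSPH1 in LD or S (0% of genes in each). In LD 6 members stood at an unadjusted p under 0.05 (11.1%, against 2.64% of genes), and in S 18 did (33.3%, against 14.6%). By Spearman's rho 5 members were called in S (9.26%, against 0.986% of genes) and 0 in LD. These 5, named after their values were seen, were DNAJA1, CCT8 and CCT2 with positive values, and BAG6 and DNAJC7 with negative ones. CCT8, a CCT subunit, had r = 0.76 in S (permutation p = 0.000360, rho = 0.84, permutation p = 4e-05) and 0.61 without the same 2 gilts. HSPE1 had r = 0.83 (permutation p = 0.000300, adjusted p = 0.0701) and rho = 0.79 (permutation p = 0.000830, adjusted p = 0.0581), with 0.75 without them. On the low and high sides of the gap r was 0.03 and 0.56 for CCT8, 0.43 and 0.41 for CCT2, -0.65 and -0.22 for DNAJC7, -0.20 and -0.11 for BAG6 and 0.40 and 0.66 for HSPE1. These side values, too, were taken without the breed mean taken off, so they are not the same measure as the other r. Each side holds a narrow range of HSPH1 and few gilts. The pooled r of BAG6 was -0.74 (permutation p = 0.00206, rho = -0.82, permutation p = 0.000290).

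For HSPA1L the member most alike by Pearson's r was DNAJB1 in both muscles. By rho CCT7 stood above it in LD (rho = 0.74, permutation p = 0.00223, r = 0.71), but had r = -0.13 in S. In S it ranked 2 of 11562 genes with r = 0.77 (permutation p = 0.00117, adjusted p = 1.0) and rho = 0.78 (permutation p = 0.00104), and r = 0.63 without PUL pig 2 and PL pig 15. In LD it ranked 20 with r = 0.76 (permutation p = 0.000790, adjusted p = 0.272) and rho = 0.68 (permutation p = 0.00575), and r = 0.70 without PL pigs 7 and 8. Within the breeds r was 0.75 in PUL and 0.79 in PL in LD, and 0.77 and 0.76 in S. No member was called in either muscle (0% of genes by the permutation test of r), and by rho 0 were called too. At an unadjusted p under 0.05 stood 11 of 54 members in LD (20.4%, against 15.2% of genes) and 2 of 54 in S (3.70%, against 2.37%).

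**Figure D4:**
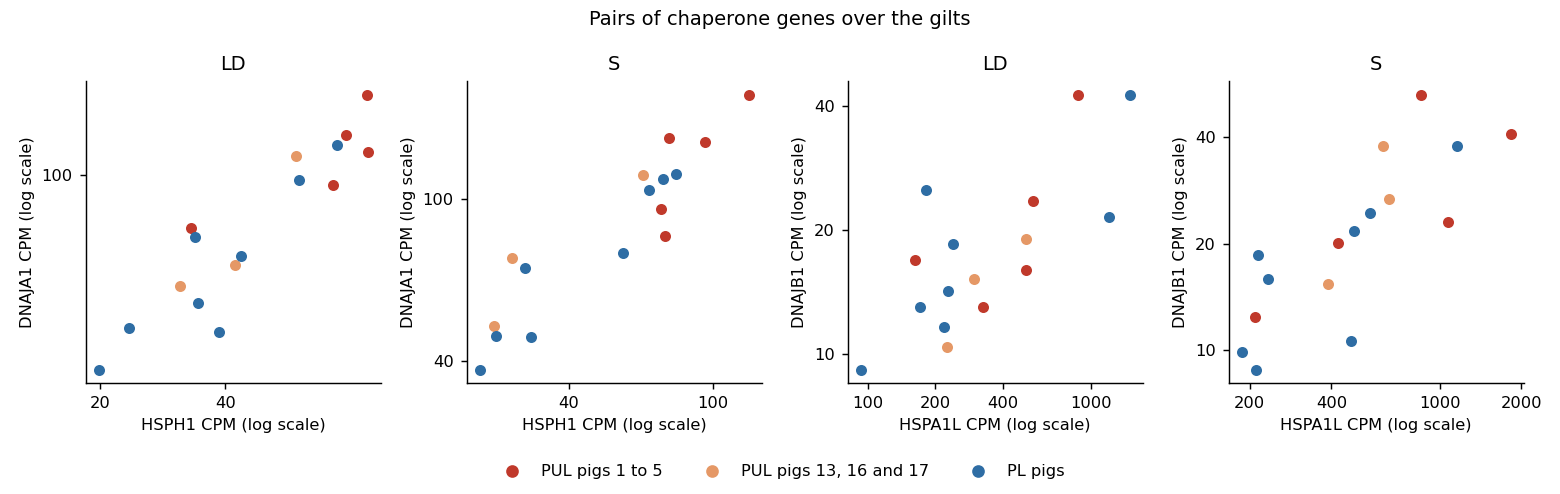
CPM (log scales) of DNAJA1 against HSPH1 and of DNAJB1 against HSPA1L over the 16 gilts, in LD and in S, each point 1 gilt. Gilts with more HSPH1 had more DNAJA1 in both muscles (r = 0.90 in LD and 0.92 in S), and those with more HSPA1L had more DNAJB1 (r = 0.76 and 0.77), and in S the HSPH1 values leave a gap between 31.3 and 56.6 CPM.

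Members with few counts gave no result. In the fit over 32 libraries 10 were not tested: DNAJC5B was at 0 counts in every library, and DNAJC6, DNAJC9, DNAJC16, DNAJC22, DNAJC27, HSPA4L, HSPB9, CCT6B and CCT8L2 had totals from 2 to 175 counts. DNAJB13 and DNAJC28, with 255 and 246 counts, passed the filter of that fit but not those of the single muscles.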

How the data were processed

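RNA from 32 muscle libraries (16 gilts, 2 muscles each) was sequenced. The authors trimmed reads with Flexbar, aligned them to the Sscrofa10.2 pig genome with Bowtie 2 and estimated abundance with RSEM, and the deposited values were RSEM expected counts per gene, not normalised, which were rounded to whole numbers here. Strand-specific counting was not given in the sources used here. The isoform table was not used. Gene symbols came from a table of Ensembl IDs, so genes without a paired symbol could not become members, and promoter sequences were not analysed.

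Groups came from the breed and muscle in the labels. The labels also give shear force, high for PUL and low for PL, while the study reported higher mean firmness and toughness in PL. The shear force label was not used. With edgeR 4.0.16 (R 4.3.3), the breeds were compared in each muscle (8 against 8 libraries, TMM, filterByExpr, quasi-likelihood F-test), and the muscles in 1 model of 32 libraries with the pig as a block, since the labels number the gilts. The deviations of a gilt's muscles from their group means correlated with r from -0.50 to 0.62 (median 0.20, over 0.1 in 11 of 16 gilts). A gilt's own other muscle was the best match in 4 of 16, so the pairing rests on the labels. P-values were adjusted by Benjamini-Hochberg over all genes, and a call needed an adjusted p of at most 0.05 and a fold change of at least 1.3. Errors are an approximate SE of the log2 fold change, its absolute value divided by the square root of the F statistic. DESeq2 1.42.0 and the edgeR exact test were alternatives, beside RLE factors, library size alone, no filter on low counts, no fold minimum, replicate number as a block and leaving out each gilt. Relations across gilts used log2(CPM + 0.5), Pearson's r and Spearman's rho with 100000 permutations (NumPy 2.4.6, SciPy 1.17.1). Scripts were tested on simulated data.

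Members and lists were chosen with earlier results of these data known. Genes were named by a rule: the 2 members of each family with the most counts, members called or, with none called, the 4 with the smallest p per comparison, the 4 with the largest spread, and well-known chaperones. Total counts of 8821273 to 24761853 per library set the precision of low genes. No pair of libraries of a group agreed within sampling noise (chi-square per degree of freedom at least 32).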

Additional observations from a re-analysis of the deposited data

Results flagged for a closer look

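In 7 of 120 groups of 8 libraries (30 named members, 4 groups each) the highest or lowest library lay apart from the other 7 by more than Dixon's limit at 95%. Chance alone gives this in about 1 in 20 groups. In PUL S, pig 2 was highest for 3 genes: the CCT subunit gene CCT7 had 217 CPM (next library 155), HSP90AB1 had 1340 CPM (next 659) and HSPA4 had 209 CPM (next 122). In PUL LD the same gilt had 493 CPM of HSPE1, the mitochondrial co-chaperonin, and the next library had 308. Pig 5 had 802 CPM of DNAJB4 in PUL S, with 252 CPM in the next library. The lowest libraries were pig 17 for HSPA9 in PUL LD, with 144 CPM against 192 in the next, and PL pig 14 for DNAJC4 in S, with 6.18 CPM against 11.3. PUL pigs 2 and 5 were among the 5 gilts with high ALB, and the part of liver transcripts in the values was not tested.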

How the results depend on the processing

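The count of members called stayed at 0 under all 138 alternatives of the breed, muscle and LD against S comparisons. Few genes of any kind were called: in the breed and muscle comparisons the largest share over all genes was 1.9% (DESeq2, breed in S). In relation to HSPH1 in S, 0 members were called by Pearson's r and 5 by Spearman's rho. Of 1996 values of 91 single-gene results under alternatives, 1914 kept their direction and 82 changed sign. The cause was not tested.

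With PUL pigs 13, 16 and 17 alone against PL, a comparison added after the data were seen, 9 of 30 named members changed sign in LD and 9 of 30 in S. In LD the values became 0.019 for BAG6, 0.15 for CCT3, 0.16 for CCT7, 0.085 for DNAJA2, 0.38 for DNAJB1, -0.16 for DNAJB5, 0.027 for HSF1, 0.13 for HSP90AB1 and 0.046 for HSPA8. In S they became 0.24 for BAG3, 0.075 for DNAJA2, 0.63 for DNAJB5, 0.11 for HSP90B1, 0.089 for HSPA4, 0.15 for HSPA9, 0.25 for HSPB8, 0.27 for HSPD1 and 0.32 for HSPH1.

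With library size alone the signs turned for the breed difference in LD of DNAJB5 (-0.10), DNAJC4 (-0.026) and HSPA1L (-0.21), and for the muscle difference in PL of DNAJB1 (0.058) and DNAJC4 (0.070). The share of members lower in S than in LD moved to 83.6% in PUL (71.2% of all genes) and 21.8% in PL (27.4%).

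By the labels, same-numbered gilts of the breeds share only a number. The median r of their deviations was 0.29 in LD and -0.064 in S. Their own number was the best match in 2 and 1 of 8. In LD this median was above the 0.20 found between the 2 muscles of a gilt. With the replicate number as a block 0 members were called, as were 0 of all 10792 genes in LD and 0 of 10687 in S. In that fit DNAJB5 in S came to 0.063, and DNAJC7 and HSPA1L in LD to 0.016 and -0.44. Without the pig as a block, pairing the muscles no longer, 0 members were called, the muscle difference of HSPB6 was -0.059 and the breed difference in the HSPB8 muscle effect -0.0021.

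Leaving out 1 gilt turned the sign of 17 values, with ranges of log2 fold change from -0.0051 to 0.12 (BAG1, S), -0.12 to 0.0032 (CCT7, LD), -0.28 to 0.26 (DNAJB1, LD), -0.14 to 0.68 (DNAJB4, S), -0.071 to 0.13 (DNAJB5, LD), -0.25 to 0.23 (DNAJB5, S), -0.15 to 0.11 (DNAJC7, LD), -0.22 to 0.079 (HSF1, LD), -0.14 to 0.022 (HSP90B1, S), -0.38 to 0.37 (HSPA1L, LD), -0.29 to 0.0022 (HSPBAP1, S) and -0.25 to 0.035 (HSPD1, S) for the breed, and -0.23 to 0.10 (DNAJB1 in PL), -0.13 to 0.12 (DNAJC4 in PL), -0.024 to 0.066 (HSP90AA1), -0.044 to 0.073 (HSPB6) and -0.021 to 0.15 (HSPB8, between breeds) for the muscle.

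Over all genes, breed calls numbered 0 in LD and 0 in S by the quasi-likelihood test, 83 and 269 by DESeq2, 13 and 57 by the exact test and 4 and 4 with no filter on low counts, and 1 in S with RLE factors, and 1 in each with PUL pigs 13, 16 and 17 alone. Muscle calls over all gilts numbered 11, against 63 by DESeq2 and 16 without the pig block, and in PUL 3, against 72, 10, 8 with no filter and 6 by library size alone. Without PL pig 14 the muscle calls were 78 over all gilts, 21 in PUL and 6 in PL, and without any 1 other gilt 4 to 14, 0 to 5 and 0.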
